A study of Homo sapiens with 6 samples.

Results

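The 7 genes described here are the arrestin-domain genes ARRDC1, ARRDC2, ARRDC3 and ARRDC4, their relative TXNIP, and MLXIP and MLX, which encode the transcription factor MondoA and its partner. Each was taken as the transcript cluster (the gene-level unit of the array) that carried its symbol and no other, and where a gene had several such clusters the one of highest mean over the 6 arrays was kept. They are 7 of 22465 genes with a single-symbol cluster. The set was drawn up with results of these arrays in view: ARRDC4 had been singled out for its lower signal with the mean of both siH19 siRNAs, and ARRDC3 was set beside it.

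The study measured RNA of HCT116, an established human colon cancer cell line, after transfection with 1 of 3 siRNAs: a control siRNA, labelled si(-), or siH19-1 or siH19-2, both aimed at H19, the long noncoding RNA of an imprinted locus. All cultures received 50 nM siRNA with the lipid reagent Lipofectamine RNAiMAX for 48 h, and each group had 2 whole-transcript arrays, labelled as biological replicates. Total RNA was extracted with Trizol and labelled with biotin through the WT PLUS kit. The model is a single cell line without a stable deletion, and apart from the word biological no label says how the replicate cultures were separated, so a p-value measures the spread between these arrays only. The values are log2 signals made by the authors with RMA, so a difference of 1 is a doubling of signal. Fold changes below are differences of group means on that scale, SD is over the 2 arrays of a group, and SE comes from the limma fit to all tested clusters.

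Alpha-arrestins such as the ARRDC proteins are adaptors: PPxY motifs in most of them recruit NEDD4-family ubiquitin ligases to membrane proteins, which are then ubiquitinated and sorted through endosomes. TXNIP shares the arrestin fold, binds thioredoxin and promotes removal of glucose transporters from the cell surface. MondoA, held in the cytoplasm until glucose phosphates accumulate, enters the nucleus as a dimer with MLX and binds carbohydrate response elements. TXNIP and ARRDC4 are its classic direct targets.

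The sequences just upstream of 3 of the genes are shown because MondoA and MLX bind E-box-like elements and TXNIP and ARRDC4 are reported targets, with ARRDC3 for comparison. TXNIP and ARRDC3 have 2 windows each, of which 1 is printed, and the other held none of the motifs searched. All 7 genes matched a promoter window in the RefSeq table (build GRCh38.p14), and the 250 bases before the annotated start were searched on both strands. The first is ARRDC4 at chr15:97960453-97960702 on the plus strand, followed by TXNIP at chr1:145996580-145996829 and ARRDC3 at chr5:91383318-91383567, both on the minus strand. Capitals mark the E-box CACGTG, the paired element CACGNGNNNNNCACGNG, which is a pair of E-box-like sites with a spacer, and the CCAAT box, which reads ATTGG on the other strand.
ARRDC4: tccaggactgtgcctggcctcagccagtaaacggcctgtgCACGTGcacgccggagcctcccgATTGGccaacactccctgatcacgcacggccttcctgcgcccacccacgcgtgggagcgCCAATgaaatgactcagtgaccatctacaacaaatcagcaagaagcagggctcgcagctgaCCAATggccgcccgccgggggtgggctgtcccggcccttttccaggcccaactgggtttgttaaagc
TXNIP: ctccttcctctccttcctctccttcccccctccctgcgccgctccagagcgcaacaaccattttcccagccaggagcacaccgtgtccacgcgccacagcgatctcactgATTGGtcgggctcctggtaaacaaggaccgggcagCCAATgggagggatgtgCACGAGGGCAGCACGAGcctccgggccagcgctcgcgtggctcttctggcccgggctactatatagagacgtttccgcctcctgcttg
ARRDC3: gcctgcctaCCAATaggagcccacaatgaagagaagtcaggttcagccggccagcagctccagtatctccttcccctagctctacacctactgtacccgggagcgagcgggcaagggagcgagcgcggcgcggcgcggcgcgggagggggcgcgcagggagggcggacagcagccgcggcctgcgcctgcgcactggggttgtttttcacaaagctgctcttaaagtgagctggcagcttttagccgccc
The ARRDC4 window held 1 E-box, from -210 to -205 relative to the start, and 3 CCAAT boxes. The TXNIP window printed held the paired element once, as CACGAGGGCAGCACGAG from -88 to -72, and 2 CCAAT boxes. The ARRDC3 window printed held 1 CCAAT box, from -241 to -237, and neither of the other motifs. Of 35116 windows of the same length in the table, 6.34% held an E-box, 16 (0.0456%) held the paired element, 32.0% held at least 1 CCAAT box and 2.93% held at least 3. Among the other members, MLX had an E-box from -50 to -45, and ARRDC1, MLX, MLXIP and 1 of the windows of ARRDC2 had 1 CCAAT box each. These are matches of letters in a fixed window and say nothing on binding in these cells.

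H19, the target of both siRNAs, was checked first. Its cluster, which also carries the symbol of its microRNA MIR675, read 4.82 and 5.02 with the control siRNA, 4.90 and 4.99 with siH19-1, and 4.95 and 5.02 with siH19-2. The signal was not lower with either siRNA (log2 fold change 0.03, limma adjusted p = 0.938, and 0.07, limma adjusted p = 0.738), and it lay at the level used below as the lower limit for testing. The arrays therefore give no check of the labels, and siH19-1 and siH19-2 stand throughout for the arrays labelled so, also where a direction is given. Array medians lay between 4.1 and 4.2, and correlations between arrays of a group (0.993 to 0.995) were above those between groups (0.974 to 0.987). Of 8 colon epithelial markers 6 reached the testing limit, among them EPCAM at a mean of 11.2 and KRT8 at 13.8, whereas CDH17 and VIL1 were low at 3.50 each. Of 15 measured markers of fibroblasts, endothelium, leukocytes and hepatocytes, 1 reached it, COL1A1 at 5.00, and all 15 lay between 2.90 and 5.00.

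A cluster was tested where at least 2 arrays had a log2 signal of 5 or more, and 24721 were. Among the members, ARRDC1, ARRDC3, ARRDC4, MLX and MLXIP passed this filter, and ARRDC2 and TXNIP did not. Both siRNAs were compared with the same 2 control arrays, so the comparisons with control share them. As bulk measurements, these values cannot tell fewer expressing cells from less RNA per cell.

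**Figure D1:**
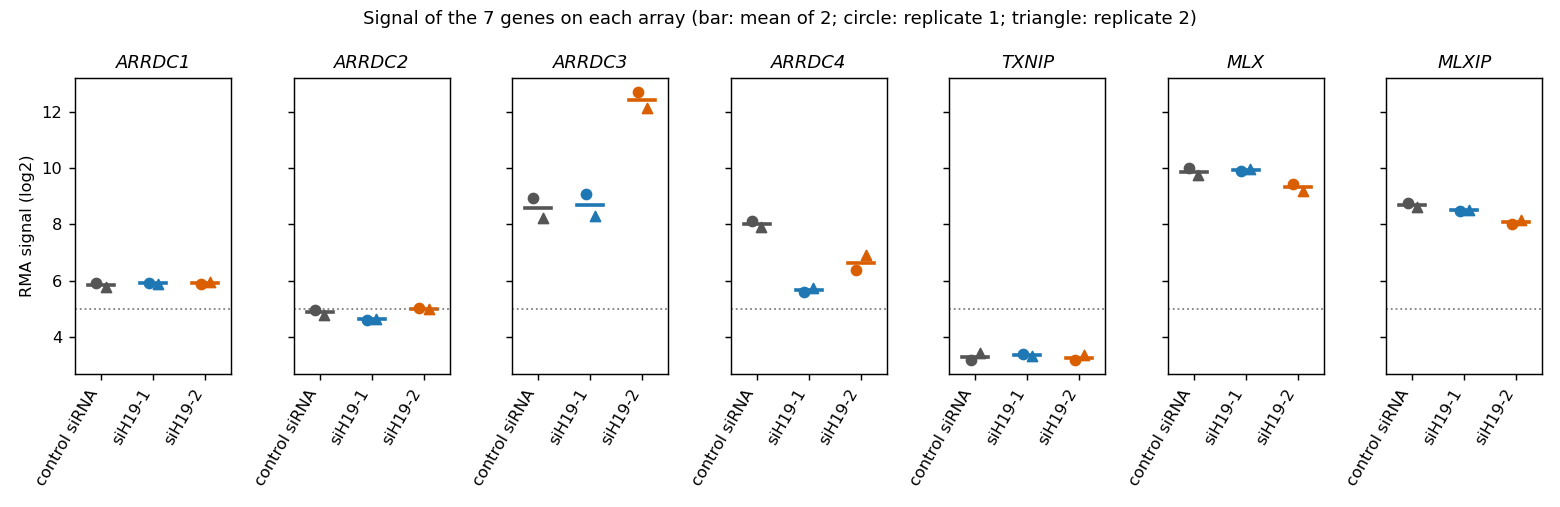
Log2 RMA signal (y axis) of each of the 7 genes on the 6 arrays, grouped by siRNA (x axis). Circles are replicate 1, triangles replicate 2, bars the mean of 2 arrays, and the dotted line the testing limit of 5. ARRDC3 lies at 12.70 and 12.13 with siH19-2 and under 9.10 on the other 4 arrays, ARRDC4 is highest on both control arrays, and TXNIP stays below 3.50 on all 6.

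ARRDC4, an alpha-arrestin reported, like TXNIP, to restrain glucose uptake, had less signal with both siRNAs. It read 8.11 and 7.92 with the control siRNA, 5.59 and 5.73 with siH19-1, and 6.36 and 6.91 with siH19-2. Every siH19 array lay below both control arrays, with a gap of 1.01 between the nearest of them, and the 2 groups of siH19 arrays did not overlap either. The group means were 8.02 ± 0.13 (SD, n = 2), 5.66 ± 0.10 and 6.64 ± 0.39. The log2 fold change was -2.36 (SE 0.20) with siH19-1, a 5.12-fold lower signal that ranked 19 from the lowest of 24721 clusters. With siH19-2 it was -1.38 (SE 0.20), 2.60-fold lower and ranked 330. These differences from control are given as a description without a test, since the gene was chosen on them.

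ARRDC4 was chosen on the mean of both siRNAs against control, and not on the difference between them. The fit uses the same spread between arrays for both, so the p-value of that difference is not free of the choice. The ARRDC4 signal was 0.98 higher (SE 0.20, 95% interval 0.49 to 1.46) with siH19-2 than with siH19-1, with a limma adjusted p of 0.0248. The arrays of the 2 groups were 0.63 apart. This call was lost without either siH19-1 array (adjusted p = 0.116 and 0.0984), without siH19-2 replicate 2 (0.0689) and with no filter on low values (0.055), and the difference stayed between 0.70 and 1.25 over all alternatives.

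ARRDC3, the alpha-arrestin that regulates beta-adrenergic receptors and, in breast cancer cells, integrin beta-4, went the other way and with 1 siRNA. It read 8.93 and 8.21 with the control siRNA, 9.07 and 8.30 with siH19-1, and 12.70 and 12.13 with siH19-2. Of the siH19-1 arrays, replicate 1 lay above both control arrays and replicate 2 between them, so these groups overlapped. Both siH19-2 arrays were above all others by at least 3.06. Group means were 8.57 ± 0.51 (SD, n = 2), 8.69 ± 0.54 and 12.42 ± 0.40. The log2 fold change with siH19-2 was 3.85 (SE 0.37), a 14.4-fold higher signal that ranked 2 from the highest of all tested clusters. With siH19-1 it was 0.12 (SE 0.37, interval -0.79 to 1.02), and this interval takes in the difference between replicate numbers given in the next paragraph. These values, too, are a description. The antisense transcript ARRDC3-AS1 has a cluster of its own, which stayed between 3.68 and 4.10 on all 6 arrays and was not tested.

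Replicate 1 of ARRDC3 exceeded replicate 2 in every group, by 0.72 with control, 0.77 with siH19-1 and 0.57 with siH19-2. The spread within each of its groups thus had the same direction. For ARRDC4 the same difference was 0.19 with control, -0.14 with siH19-1 and -0.55 with siH19-2, with no common sign.

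Set side by side within each array, ARRDC4 minus ARRDC3 was -0.82 and -0.29 with the control siRNA, -3.48 and -2.57 with siH19-1, and -6.34 and -5.22 with siH19-2. The 3 groups did not overlap, and the SD within groups was 0.63. The level of this difference reflects the probes of each cluster, so only its shift can be read. It shifted by -2.47 from control to siH19-1 and by -5.23 from control to siH19-2. With siH19-1 nearly the whole shift came from the lower ARRDC4 signal (-2.36), whereas with siH19-2 the higher ARRDC3 signal gave 3.85 of it and the lower ARRDC4 signal 1.38 in size. A scaling factor for a whole array cancels in this quantity, and leaving out any 1 array kept the shifts between -2.93 and -2.02 and between -5.79 and -4.67.

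**Figure D2:**
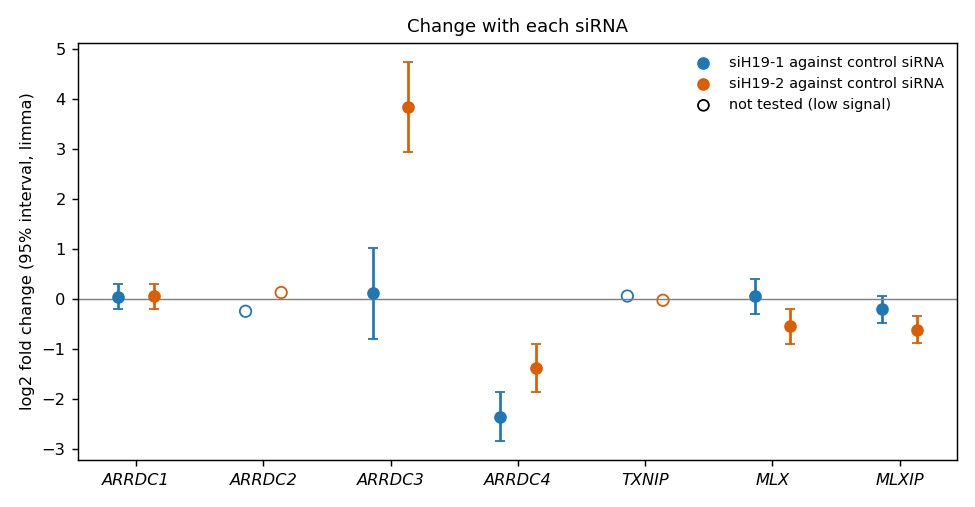
Log2 fold change against the control siRNA (y axis) for each gene with siH19-1 (blue) and siH19-2 (orange). Points are differences of group means and bars 95% intervals from limma, and open points without bars are ARRDC2 and TXNIP, which were not tested. ARRDC4 lies below 0 with both siRNAs, at -2.36 and -1.38, and ARRDC3 lies at 3.85 with siH19-2 and at 0.12 with siH19-1.

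Of the other arrestin-domain genes, ARRDC1 showed no difference past the test and ARRDC2 was not tested. ARRDC1, an alpha-arrestin that recruits the ESCRT protein TSG101 to the plasma membrane for budding of microvesicles, read 5.93 and 5.79 with the control siRNA, 5.93 and 5.88 with siH19-1, and 5.87 and 5.96 with siH19-2. All 3 groups overlapped. With siH19-1 it differed from control by 0.05 on the log2 scale (SE 0.10, 95% interval -0.20 to 0.29), at a limma adjusted p of 0.862, and with siH19-2 by 0.06 (SE 0.10, 95% interval -0.19 to 0.30), at a limma adjusted p of 0.746.

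ARRDC2, a less studied alpha-arrestin, read 4.97 and 4.78 with the control siRNA, 4.61 and 4.65 with siH19-1, and 5.02 and 4.99 with siH19-2. Its order over the groups, lowest with siH19-1 and highest with siH19-2, was free of overlap, but 1 array alone reached 5 and the gene was not tested. The mean differences were -0.25 with siH19-1, 0.13 with siH19-2 and 0.38 between the siRNAs. With no filter on low values the last of these had a limma adjusted p of 0.133. It passed, at 0.0286, with arrays scaled to the rows outside the transcript clusters, which moved every cluster by 0.12 between the siRNAs.

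TXNIP, the thioredoxin-binding member, had almost no signal on these arrays. It read 3.17 and 3.42 with the control siRNA, 3.39 and 3.32 with siH19-1, and 3.17 and 3.37 with siH19-2. The groups overlapped, and the differences from control were 0.06 and -0.03. For scale, the median of 23 background probe rows was 3.00, and 20 of them had a mean below 5. TXNIP stood at the 15.1 percentile of all clusters by mean signal, so these arrays cannot show a fall. They also cannot tell little TXNIP RNA from probes that respond poorly. Whether TXNIP moved with ARRDC4, as another target of MondoA and MLX, could therefore not be measured here.

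The genes for the transcription factor pair were both somewhat lower with siH19-2. MLXIP, which encodes the glucose-sensing subunit MondoA, read 8.76 and 8.63 with the control siRNA, 8.47 and 8.51 with siH19-1, and 8.01 and 8.15 with siH19-2. The 3 groups did not overlap, and the siH19-1 arrays lay in the middle. With siH19-2 it fell by 0.62 (log2 fold change -0.62, SE 0.11, interval -0.89 to -0.34, limma adjusted p = 0.0165). With siH19-1 the fold change was -0.21 (SE 0.11, limma adjusted p = 0.35), and the difference between the siRNAs was -0.41 (SE 0.11, limma adjusted p = 0.0551). The siH19-2 call was lost without control replicate 1 (adjusted p = 0.0568) and without siH19-2 replicate 1 or 2 (0.102 and 0.0581). The mean of both siRNAs was -0.41 (limma adjusted p = 0.0472), a call lost with every array left out in turn (0.0825 to 0.163), with median centring (0.0543), with no filter (0.118) and with scaling to spike-in and background rows (0.135).

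MLX, the partner through which MondoA binds DNA, read 9.98 and 9.75 with the control siRNA, 9.89 and 9.95 with siH19-1, and 9.44 and 9.19 with siH19-2. Both siH19-2 arrays lay below the other 4, which overlapped. With siH19-2 the gene fell by 0.55 (log2 fold change -0.55, SE 0.14, interval -0.90 to -0.20, limma adjusted p = 0.0447). It was also lower than with siH19-1 (difference -0.61, SE 0.14, limma adjusted p = 0.0375), while siH19-1 against control gave 0.06 (SE 0.14, interval -0.29 to 0.40, limma adjusted p = 0.88). The siH19-2 call was lost with any 1 of the 6 arrays left out (adjusted p 0.0551 to 0.187), with no filter (0.0999), with the arrays of the comparison alone (0.0891), and with arrays scaled to the rows outside the transcript clusters (0.0557) or to spike-in and background rows (0.0946). It failed in 10 of 15 alternatives. The difference from siH19-1 was lost without either siH19-1 array (0.133 and 0.173), without either siH19-2 array (0.0907 and 0.161), with no filter (0.0845) and with spike-in scaling (0.121).

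ARRDC4 and the pair thus differed in their order over the groups. ARRDC4 was lowest with siH19-1, and MLX and MLXIP were lowest with siH19-2. MLXIP was below control with siH19-1 too (-0.21, limma adjusted p = 0.35), and its difference between the siRNAs did not pass (limma adjusted p = 0.0551). Any link between the RNA of the pair and that of ARRDC4 was not tested. Of the 5 tested members 1 was called with siH19-1, as lower, beside 6.22% of all tested clusters (2.65% higher and 3.56% lower). With siH19-2 4 were called, 1 higher and 3 lower, beside 21.0% (10.2% and 10.8%). With the mean of both siRNAs 3 were called, 1 higher and 2 lower, beside 12.4% (5.19% and 7.17%). Between the siRNAs 3 were called, 2 higher and 1 lower with siH19-2, beside 18.2% (9.76% and 8.42%). In the same order, 2, 4, 2 and 4 of the 5 had arrays that did not overlap between the groups compared, beside 49.6%, 60.9%, 26.5% and 63.8% of all tested clusters. Nothing is read from these counts, since ARRDC3 and ARRDC4 were placed in the set with the changes known and members with low signal could not be tested.

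Likeness was measured as the Euclidean distance over the 6 arrays between log2 profiles centred on each gene's own mean. The search covered 9864 tested genes. It left out the members, antisense and small RNA genes, and symbols such as those with LOC, LINC, FAM, KIAA or orf. Among the 9864, the 5 nearest to ARRDC4 were MKX, TNFSF18, PPIL1, SMARCB1 and ARHGDIA, at distances from 0.45 to 0.76. MKX, a homeobox transcription factor of tendon cells, read 8.43 and 8.72 with control, 6.24 and 6.41 with siH19-1, and 7.07 and 7.26 with siH19-2. TNFSF18, the ligand of the immune receptor GITR, read 6.19 and 5.58, then 3.91 and 4.01, then 4.25 and 4.77 in the same order of groups. Its siH19 arrays all lay below the testing limit of 5, so it was tested through its control arrays alone and its fall is bounded by the low signal. PPIL1 is a cyclophilin of the spliceosome and SMARCB1 a core subunit of SWI/SNF remodelling complexes. All 5 were lowest with siH19-1 and in between with siH19-2, as the measure demands.

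None of the 9864 genes searched was as near to ARRDC3, whose change was larger. Its 5 nearest profiles were FRK, PRSS8, LIPH, TFPI and RBMS2, at distances from 1.25 to 1.94. FRK, a Src-related tyrosine kinase, read 6.19 and 6.13 with control, 7.05 and 7.11 with siH19-1, and 10.10 and 9.70 with siH19-2, a change of 0.92 with siH19-1 and of 3.74 with siH19-2. PRSS8, the epithelial serine protease prostasin, changed by 2.44 with siH19-2 and by -0.55 with siH19-1. LIPH, a phospholipase, TFPI, the tissue factor pathway inhibitor, and RBMS2, an RNA-binding protein, changed by 2.79, 2.62 and 2.16 with siH19-2 and by 0.73, 0.35 and -0.05 with siH19-1. FRK, LIPH and TFPI were above both control arrays on both siH19-1 arrays too, whereas ARRDC3 was so on siH19-1 replicate 1 alone. The likeness rests on 6 arrays in 3 groups and is a description.

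**Figure D3:**
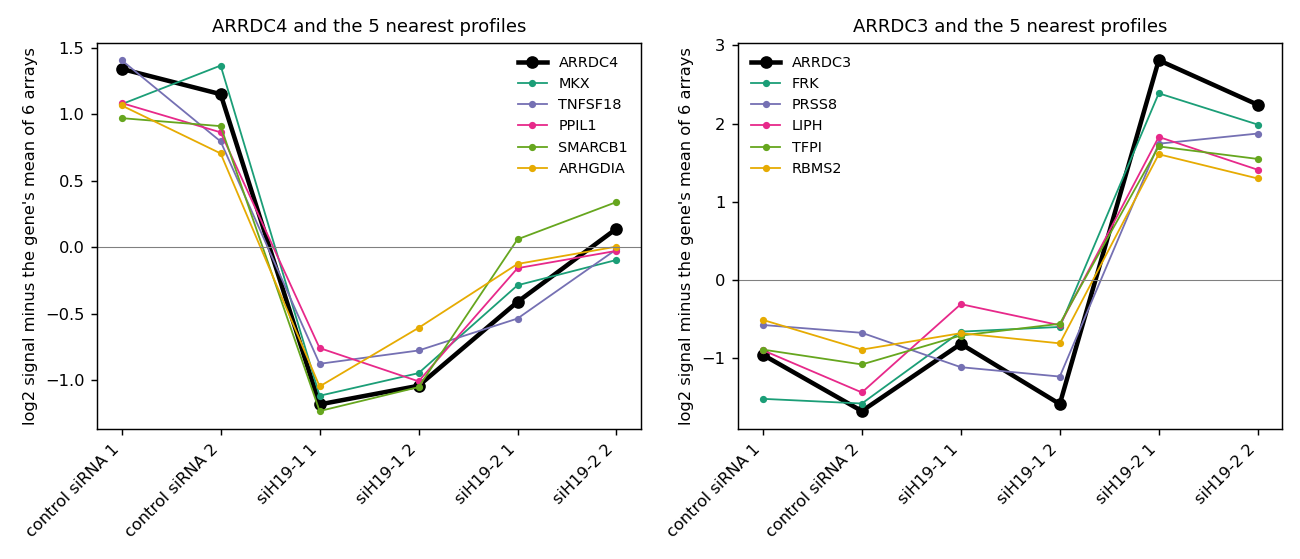
Log2 signal minus each gene's mean over the 6 arrays (y axis) on each array (x axis, siRNA and replicate number), for ARRDC4 (left, black) and ARRDC3 (right, black) with their 5 nearest profiles in colour. The lines join arrays for legibility only. The ARRDC4 profiles are highest on the 2 control arrays and lowest with siH19-1, and the ARRDC3 profiles are highest on the 2 siH19-2 arrays, where FRK changes by 3.74 against 3.85 for ARRDC3.

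Genes that work beside the members were read from 8 lists, with the calls of the same fit. Those named had the smallest p of their list for the mean of both siRNAs, so their p-values are not free of that choice. Of the other arrestin-fold proteins 4 of 6 were tested. ARRB1, which encodes the receptor-desensitising beta-arrestin 1, read 7.42 and 7.55 with control, 7.57 and 7.56 with siH19-1, and 5.73 and 6.03 with siH19-2, and it fell by 1.61 with siH19-2 (limma adjusted p = 0.00306, called under all 14 alternatives). VPS26A, an arrestin-fold subunit of the retromer complex, rose by 0.76 with siH19-2 (limma adjusted p = 0.0153), a call lost without siH19-2 replicate 1 (0.0872) and without control replicate 2 (0.0519). With siH19-1 it rose by 0.72 (limma adjusted p = 0.0392), a call lost with each of the 6 arrays left out (up to 0.208). VPS26C, of the related retriever complex, rose by 0.44 with siH19-2 (limma adjusted p = 0.0225), also lost with each array left out (0.0546 to 0.106). The median of the 4 was 0.24 with siH19-1 and 0.14 with siH19-2, beside -0.02 and 0.05 over all tested clusters.

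Of the NEDD4-family ligases and their adaptors, the enzymes that ARRDC proteins recruit, 10 of 11 were tested. With siH19-1 0 rose and 1 fell, beside 2.65% and 3.56% of all tested clusters. With siH19-2 1 rose and 1 fell, beside 10.2% and 10.8%. SMURF2 read 14.53 and 14.20 with control, 13.64 and 13.34 with siH19-1, and 14.63 and 14.55 with siH19-2. It fell by 0.88 with siH19-1 (limma adjusted p = 0.0413, lost with any array left out, 0.053 to 0.203). NEDD4L rose by 0.50 with siH19-2 (limma adjusted p = 0.041, lost with any array left out, 0.0651 to 0.176), and WWP2 fell by 0.58 (limma adjusted p = 0.0283, kept without control replicate 2 alone, otherwise 0.0606 to 0.138). The medians were 0.08 and 0.04.

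Of the ESCRT and endosomal sorting genes, which carry ubiquitinated cargo to lysosomes, 12 of 13 were tested. With siH19-1 1 rose and 1 fell, beside 2.65% and 3.56% of all tested clusters. With siH19-2 0 rose and 5 fell, beside 10.2% and 10.8%. The medians were 0.02 and -0.15. The 5 falls became 0 without siH19-2 replicate 1, 1 without siH19-2 replicate 2, 2 without control replicate 1 and 3 without either siH19-1 array or with no filter, while 5 had an unadjusted limma p under 0.05 with any array left out. VPS4A, the ATPase that recycles ESCRT filaments, read 8.54 and 8.17 with control, 6.97 and 7.09 with siH19-1, and 7.46 and 7.29 with siH19-2. With siH19-1 it fell by 1.33 (limma adjusted p = 0.0137), the 1 fall counted above, a call that did not hold with every array left out. Over both siRNAs it fell by 1.15, given without a test because the genes named were picked on that comparison. With siH19-2 it fell by 0.98 (limma adjusted p = 0.0115), a call lost without either siH19-2 array, where the differences were -1.065 and -0.895. TSG101, the partner of ARRDC1, fell by 0.92 with siH19-2 (limma adjusted p = 0.0349, kept without control replicate 2 alone, otherwise 0.0586 to 0.147). VPS28 and VPS37A, 2 further subunits of its complex, fell by 0.73 (limma adjusted p = 0.0154) and 0.71 (limma adjusted p = 0.0174). VPS28 no longer passed once control replicate 1 (0.0535) or siH19-2 replicate 1 (0.0925) was omitted, nor VPS37A once either siH19-2 array was (0.0952 and 0.0841).

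Of the thioredoxin system, to which TXNIP binds, 9 of 11 genes were tested. With siH19-1 1 rose and 0 fell, beside 2.65% and 3.56% of all tested clusters. With siH19-2 2 rose and 3 fell, beside 10.2% and 10.8%. The medians were 0.27 and -0.15. With 1 array left out 1 to 2 rose and 1 to 3 fell with siH19-2, the fewest without siH19-2 replicate 1. TXNRD1, thioredoxin reductase, read 9.53 and 9.61 with control, 10.36 and 10.52 with siH19-1, and 10.67 and 10.97 with siH19-2. It rose by 1.25 with siH19-2 (limma adjusted p = 0.00525, called under all 14 alternatives) and by 0.87 with siH19-1 (limma adjusted p = 0.0304, lost with any array left out, 0.0534 to 0.169). TXNL1, a thioredoxin-like protein of the proteasome, fell by 1.21 with siH19-2 (limma adjusted p = 0.00464, called under all 14). PRDX2, a peroxidase that thioredoxin reduces, fell by 0.83 with siH19-2 (limma adjusted p = 0.00982), a call lost without siH19-2 replicate 1, where the difference was -0.785. PRDX4, a related peroxidase, went the other way and rose by 0.76 with siH19-2 (limma adjusted p = 0.0229). The PRDX4 call was lost with no filter on low values (0.052), and the rise ran from 0.565 to 0.945 with 1 array left out.

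In the network of MYC, MAX and MLX partners 7 of 11 genes were tested and limma called 0 in any comparison, with 0 at an unadjusted p under 0.05 with siH19-1 and 1 with siH19-2. MLXIPL, which encodes ChREBP, the relative of MondoA, read 5.69 and 5.70 with control, 5.90 and 5.86 with siH19-1, and 5.89 and 5.99 with siH19-2 (log2 fold change 0.19 and 0.25, limma adjusted p = 0.319 and 0.121). MYC, which shares the partner network of MondoA, differed by -0.24 and -0.22 (limma adjusted p = 0.529 and 0.455). Without control replicate 1 the siH19-2 difference of MYC was 0.015. Its siH19-1 difference ran from -0.475 to -0.005 with 1 array left out.

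Of the genes of glucose uptake and glycolysis, the processes that TXNIP and ARRDC4 restrain, 18 of 19 were tested. With siH19-1 1 rose and 1 fell, beside 2.65% and 3.56% of all tested clusters. With siH19-2 1 rose and 4 fell, beside 10.2% and 10.8%. The medians were 0.30 and -0.23. The 4 falls became 0 without siH19-2 replicate 1 or 2 (4 and 5 at an unadjusted limma p under 0.05) and 2 without control replicate 1, either siH19-1 array or the filter, whereas quantile normalization gave 6. The transporter genes went apart. SLC2A1, which encodes the transporter GLUT1 that TXNIP removes from the surface, read 12.16 and 11.60 with control, 11.32 and 10.76 with siH19-1, and 10.40 and 9.99 with siH19-2. It fell by 1.69 with siH19-2 (limma adjusted p = 0.0136, lost without siH19-2 replicate 1 or 2, 0.0557 and 0.0738), and with siH19-1 its change was -0.84 (limma adjusted p = 0.158, with both siH19-1 arrays below both control arrays). SLC2A3, for the transporter GLUT3, read 5.26 and 5.42, then 6.52 and 6.55, then 7.54 and 7.55 in that order. It rose by 2.21 with siH19-2 (limma adjusted p = 0.00243, called under all 14 alternatives) and by 1.20 with siH19-1 (limma adjusted p = 0.00862). The siH19-1 call, like every other siH19-1 call, was lost without siH19-1 replicate 1 or 2, where the rise was 1.21 and 1.18.

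Of 12 reported targets of MondoA or ChREBP outside the members 8 were tested. With siH19-1 2 rose and 1 fell, beside 2.65% and 3.56% of all tested clusters. With siH19-2 1 rose and 2 fell, beside 10.2% and 10.8%. The medians were 0.40 and -0.22. The 2 falls became 1 without control replicate 1 and 0 without any 1 siH19 array (2 to 3 at an unadjusted limma p under 0.05). HK2, the hexokinase whose product activates MondoA and which is also in the glycolysis list, read 7.29 and 6.55 with control, 5.41 and 5.42 with siH19-1, and 6.01 and 6.01 with siH19-2. It fell by 1.51 with siH19-1 (limma adjusted p = 0.0265) and by 0.91 with siH19-2 (limma adjusted p = 0.0451), and the difference of 0.60 between the siRNAs did not pass (limma adjusted p = 0.14). Both calls were kept without either control array and lost without any siH19 array (0.0682 to 0.142 and 0.0815 to 0.167). ACLY and ACACA, enzymes of fatty acid synthesis, went differently. With siH19-2 ACLY differed from control by -0.44, which did not pass (limma adjusted p = 0.0533). ACLY rose by 1.12 with siH19-1 (limma adjusted p = 0.0124). That call, like every other siH19-1 call, was lost without siH19-1 replicate 1 or 2, where the rise was 1.085 and 1.155. ACLY was 1.56 lower with siH19-2 than with siH19-1 (difference -1.56, limma adjusted p = 0.00382, called under all 14 alternatives). ACACA rose by 0.79 with siH19-2 (limma adjusted p = 0.0121, lost without siH19-2 replicate 1 or 2, 0.0846 and 0.0519) and by 0.69 with siH19-1 (limma adjusted p = 0.0372, lost with any array left out, 0.0835 to 0.211).

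Among 5 reported cargo proteins of the family 3 were tested, and 2 fell with siH19-2. They were SLC2A1, given above, and ITGB4, integrin beta-4, which read 8.23 and 7.53 with control, 8.61 and 8.15 with siH19-1, and 6.69 and 6.67 with siH19-2. ITGB4 fell by 1.20 (limma adjusted p = 0.0291, lost without control replicate 1, 0.0681, and without siH19-2 replicate 1 or 2, 0.128 and 0.116). With siH19-1 it differed by 0.50 (limma adjusted p = 0.341). ARRDC proteins act on cargo as protein, which arrays do not measure. For reading all of these counts, the background is the share of all tested clusters called in each direction, given above with the members. Without either siH19-1 array limma called 0 of 24721 clusters for siH19-1 against control (3939 and 3805 at an unadjusted p under 0.05), so all siH19-1 calls in this text rest on having both.

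**Figure D4:**
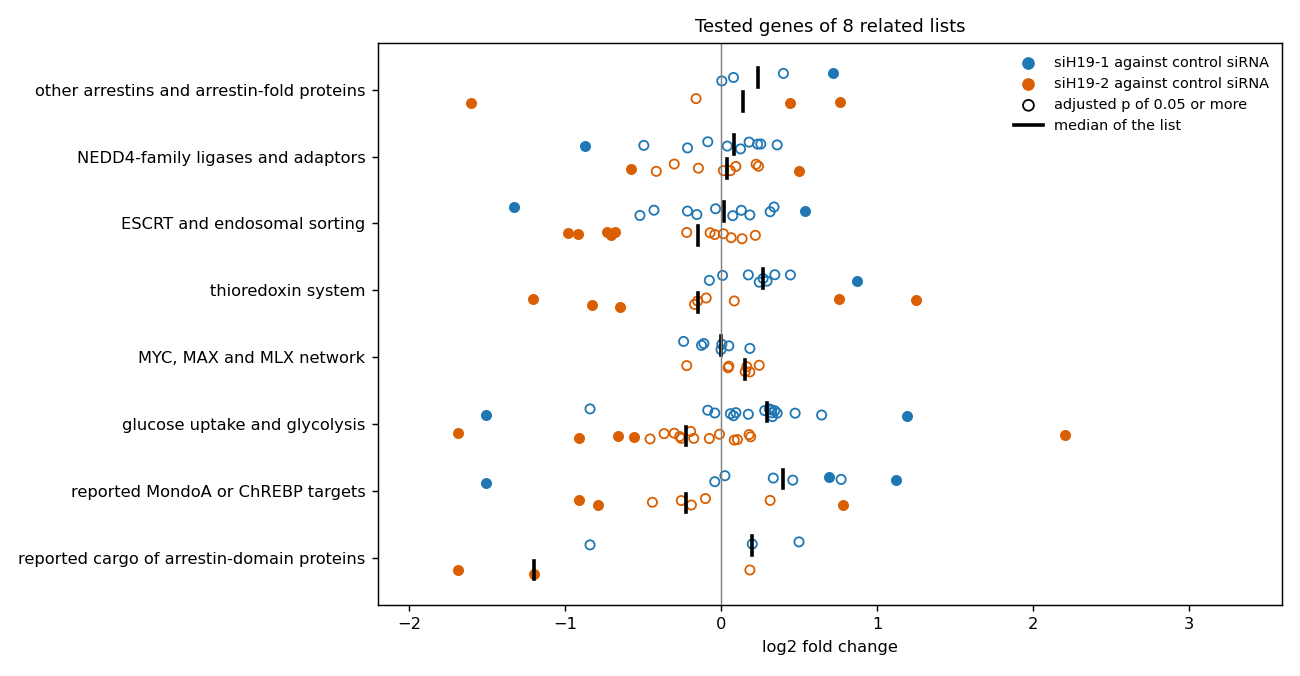
Log2 fold change against the control siRNA (x axis) of the tested genes of 8 related lists (y axis), with siH19-1 in blue and siH19-2 in orange. Filled points had a limma adjusted p under 0.05, open points did not, and black bars are list medians. In the glycolysis list SLC2A3 lies at 1.20 and 2.21 and SLC2A1 at -0.84 and -1.69, and no point of the MYC, MAX and MLX network is filled.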

How the data were processed

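Each of the 6 arrays, 2 per group, gave 1 column of log2 signals. The authors made these deposited log2 values with Affymetrix Expression Console and RMA, per the submitters' processing notes. RMA subtracts a background estimate, equalises the distributions of the arrays and combines the probes of a row. Versions, parameters and genome build are not given in the sources used here. Differences on this scale understate changes near background, and the number of arrays limits the precision.

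Of 70523 rows, 67528 were transcript clusters. Groups and replicate numbers came from the sample titles, and symbols from the platform annotation. Clusters that reached 5 on the log2 scale in 2 or more arrays were fitted with limma 3.58.1 in R 4.3.3 (lmFit with 1 mean per group, eBayes with trend, two-sided). That left 3 residual degrees of freedom, and p-values were adjusted by Benjamini-Hochberg over 24721 clusters within each of 4 comparisons. The threshold was 0.05.

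The members and gene lists were chosen with earlier results of these data known. All members and H19 were named, as were up to 4 genes per list of smallest p for the mean of both siRNAs, of which the text describes a part, and the 5 most alike profiles. Alternatives were a replicate block, no filter or a filter at 6, no trend, 4 other scalings, the arrays of 1 comparison alone and leaving out each array. Promoter windows came from RefSeq (GRCh38.p14).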

Additional observations from a re-analysis of the deposited data

How the results depend on the processing

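With 2 arrays per group the counts of calls depend on the settings, and the members' directions mostly do not. Main counts of called clusters were 1537 with siH19-1, 5203 with siH19-2, 3054 with the mean of both and 4495 between the siRNAs. In that order they were 607, 3108, 1489 and 2667 with no filter, and 873, 3027, 1828 and 2458 with scaling to spike-in and background rows, an alternative chosen after seeing the data. With the arrays of the comparison alone they were 557 with siH19-1 and 3434 with siH19-2. Leaving out 1 array gave 0 to 770, 1285 to 3655, 636 to 1772 and 517 to 4760, and the members called ranged from 0 to 1, 2 to 3, 1 to 2 and 1 to 3. With no filter 1 member was called between the siRNAs. Scaling also moved the share of calls that were higher. With siH19-2 it was 48.6% as reported, 64.9% scaled to non-cluster rows and 35.0% scaled to spike-in and background rows. Between the siRNAs it was 53.7% and, scaled to non-cluster rows, 70.8%. With siH19-1 it was 42.7% and, scaled to spike-in and background rows, 31.4%, and with the mean of both 42.0% and 28.0%. Scaling to non-cluster rows moved every cluster by 0.11 with siH19-2 and by 0.12 between the siRNAs, and spike-in scaling by -0.10 with siH19-2. Called members kept their direction under these scalings.

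The replicate numbers carry no stated link. Deviations of same-numbered arrays correlated at 0.29, 0.20 and 0.20 over clusters. With the replicate number as a block 2142, 6581, 4090 and 5983 clusters and 1, 4, 3 and 3 members were called, and SLC2A1 with siH19-1 had a limma adjusted p of 0.0175.

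Among the members, the differences that changed sign were near 0 in the main fit and not called. Leaving out 1 array gave ARRDC3 with siH19-1 values from -0.27 (without siH19-1 replicate 1) to 0.50, and -0.245 without control replicate 2. For MLX with siH19-1 they ran from -0.06 (without control replicate 2) to 0.17, and spike-in scaling gave -0.029. For ARRDC1 they ran from -0.025 to 0.115 with siH19-1, -0.015 to 0.125 with siH19-2 and -0.02 to 0.12 with the mean of both, the lowest being without control replicate 2. Between the siRNAs they ran from -0.035 (without siH19-2 replicate 2; without siH19-1 replicate 2 the value was -0.015) to 0.055. Spike-in scaling gave ARRDC1 -0.039, -0.047, -0.043 and -0.0084 in that order, median centring -0.01, -0.0025 and -0.015 with siH19-2, the mean and between the siRNAs, and quantile normalization -0.057 between the siRNAs. ARRDC2, tested under 2 alternatives, differed between the siRNAs at a limma adjusted p of 0.133 with no filter and 0.0286 with scaling to non-cluster rows. MLXIP differed between the siRNAs at 0.0411 with the filter at 6 and 0.0363 with quantile normalization. Among the listed genes described, no filter ended the calls of VPS26A, SMURF2, TXNRD1 and ACACA with siH19-1, of VPS26C, NEDD4L, WWP2, TSG101, PRDX4 and ITGB4 with siH19-2, and of HK2 with both (limma adjusted p 0.052 to 0.0957). Spike-in scaling ended those of VPS26A and ACACA with both siRNAs, SMURF2 and TXNRD1 with siH19-1, and VPS26C, NEDD4L, WWP2 and PRDX4 with siH19-2 (0.0646 to 0.306). Median centring ended those of VPS26A and ACACA with siH19-1 and of VPS26C and NEDD4L with siH19-2 (0.0577 to 0.0925). The cause of these changes was not tested.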
